A study of Mus musculus with 16 samples.

Results

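The 342 highest-scoring C/EBPα peaks of mouse 3T3-L1 adipocytes are described here, with what PPARγ, MED1 and CBP did at them when rosiglitazone was added for 1 h. They are the peaks with a deposited score of 150 or more, out of 30517 C/EBPα peaks outside the mitochondrial chromosome, or 1.12% of them. The 2 peaks on the mitochondrial chromosome also passed 150 and were left out. The peaks were thus chosen by a measured value, the score, which was almost the C/EBPα tag count itself. Divided by the C/EBPα tags of both treatments, pooled and put on the same scale, it had a median of 1.00 over the 342 peaks, with 5th and 95th percentiles of 0.972 and 1.01. C/EBPα heights are therefore given as a description and support nothing here, while PPARγ, MED1, CBP, position and overlap with PPARγ peaks played no part in the choice.

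C/EBPα is a basic leucine zipper transcription factor that switches on many genes of the mature fat cell and of insulin response. PPARγ is the nuclear receptor that binds DNA as a dimer with RXR, is needed for adipocytes to form, and is activated by rosiglitazone, a thiazolidinedione used against diabetes. MED1 is the subunit through which the Mediator complex, the bridge between transcription factors and RNA polymerase II, contacts nuclear receptors, and CBP is an acetyltransferase that marks histones at active enhancers.

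3T3-L1 is a line of mouse embryonic fibroblasts that becomes fat cells in culture. All cells had been differentiated with dexamethasone, 3-isobutyl-1-methylxanthine and insulin and were at day 7, and they received either 1 µM rosiglitazone or vehicle (0.1% DMSO) for 1 h before crosslinking. Chromatin immunoprecipitation sequencing was done for PPARγ and RNA polymerase II with 2 samples per treatment in the labels, and for C/EBPα, MED1, CBP and input chromatin with 1, which makes 16 samples in 12 groups. The question the pairs of samples address is how acute ligand moves these factors on the genome.

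The peak list gave 1 column per treatment for PPARγ, C/EBPα, MED1 and CBP, as tags per peak after normalization by the authors, called units here. RNA polymerase II and input were not analysed here, and the PPARγ columns do not name a replicate. Depths, assuming values per 10 M (mega) tags, were 11.4 M (DMSO) and 12.03 M (rosiglitazone) for PPARγ, 4.53 and 7.85 M for C/EBPα, 2.86 and 1.31 M for MED1, and 4.52 and 1.65 M for CBP. With 1 column per treatment there is no replicate check, so no p-value is given. Intervals in brackets are exact 95% intervals (Clopper-Pearson), of recovered tags for ratios and of numbers of peaks for percentages. Peaks are not replicates. With 1 column per treatment the intervals cover counting error only, and neither the spread between cultures nor a difference in enrichment between libraries enters them. The tags carry no molecular identifiers, so copies of 1 fragment cannot be told from separate fragments.

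Scores of the 342 peaks ran from 150.2 to 5345.6 with a median of 199.5, against a median of 15.3 in the list. Of them, 172 scored from 150 to under 200, 122 from 200 to under 300 and 48 scored 300 or more, 3 of those over 1000. Each peak was 230 bp wide and held at least 186 C/EBPα tags, with a median of 248, so single peaks were measured well for C/EBPα. The threshold cut a continuous range. Positions are in mm9, and genes at them were not analysed here. Just inside lay 3 peaks at 150.2, on chromosome 17 from 17761437 to 17761667, chromosome 19 from 12561379 to 12561609 and chromosome 5 from 75550295 to 75550525. Just outside lay peaks at 149.4 on chromosomes 1 and 14 and at 148.6 on chromosome 9. C/EBPα at the inside peaks was 194.31, 112.61 and 150.15 units in DMSO, and at the outside peaks 134.69, 216.39 and 187.69, so the sides did not separate in DMSO alone. The rosiglitazone library made up 63.4% of the pooled C/EBPα tags and so weighed more in the score.

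Most of the high-scoring C/EBPα peaks also carried a PPARγ peak. Of the 342, 301 (88.0%, 84.1 to 91.3) shared at least 1 bp with one of the 30588 peaks of the PPARγ list, against 36.2% of the whole C/EBPα list. Sharing was 79.9% (75.9 to 83.4) at the 462 peaks scoring from 100 to under 150, so much of the excess was already present below the threshold. Within the high-scoring peaks it was 84.9% from 150 to under 200, 91.0% from 200 to under 300 and 91.7% at 300 and over.

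The paired peaks lay close together. The centres of the C/EBPα peak and its PPARγ peak were a median of 25 bp apart, 129 of 301 pairs (42.9%) were under 20 bp apart, and 14 were 100 bp or more apart. At the 10732 other shared C/EBPα peaks the median was 42 bp and 25.6% were under 20 bp. The PPARγ partners were spread widely over their own list. Their median rank by score was 3007, with quartiles of 929 and 6852, and their median score was 32.1 against 11.5 for the PPARγ list. Partners of the other shared C/EBPα peaks had a median rank of 10259. Of the 342, 52 (15.2%) were paired with a peak among the 342 highest of the PPARγ list, against 8.87% of the band from 100 to under 150 and 0.918% of the whole C/EBPα list.

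In DMSO the high-scoring peaks held more of every factor than the list, but less of each per unit of C/EBPα. Median C/EBPα was 219.7 units in DMSO and 196.1 in rosiglitazone at these peaks, and 15.46 and 16.56 in the list. Median PPARγ was 16.71 units in DMSO, with quartiles of 8.79 and 37.4, against 4.4 in the list. MED1 had a median of 59.41 units (quartiles 35.0 and 108) against 6.99, and CBP 35.36 (18.2 and 66.3) against 6.63. Heights of the cofactors overlapped widely between the peaks. PPARγ ran from 0 to 1110.61 units, and MED1 was listed at 0 in 8 peaks and CBP in 5. Divided by the C/EBPα of the same peak, PPARγ was 0.0789 at the high-scoring peaks and 0.243 in the list (medians), MED1 0.266 and 0.396, and CBP 0.162 and 0.334. The denominator is the measure that chose the peaks, so these lower quotients are a description of the selection as much as of the cofactors.

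With 1.12% of the peaks, the group held 12.4% of all C/EBPα signal of the list in DMSO and 10.6% in rosiglitazone. Its share of PPARγ was 4.84% in DMSO and 6.53% in rosiglitazone, its share of MED1 5.77% and 7.13%, and its share of CBP 4.23% and 4.36%. The C/EBPα share was thus lower with rosiglitazone, the PPARγ and MED1 shares higher, and the CBP share nearly equal. Between the factors, DMSO levels followed each other most for MED1 and CBP, with a Spearman correlation of 0.68 across the 342 peaks. It was 0.42 for PPARγ and CBP, 0.33 for PPARγ and MED1 and 0.25 for C/EBPα and PPARγ. Over the whole list the values were 0.60, 0.42, 0.34 and 0.31 in the same order, so this ranking is not particular to the high-scoring peaks. These correlations describe peaks of the same libraries, which are not replicates.

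PPARγ was higher with rosiglitazone at nearly all of these peaks. The median PPARγ level was 16.71 units in DMSO and 40.74 in rosiglitazone (quartiles 25.8 and 82.1), and no peak was left at 0 in rosiglitazone against 1 in DMSO. Summed over the 342 peaks the PPARγ ratio of rosiglitazone to DMSO was 2.14 (2.10 to 2.18), and over the other peaks of the list 1.56. Peak by peak, on log2 of the value plus 1, the median was 1.21 with quartiles of 0.68 and 1.94, and 320 of 342 peaks (93.6%) lay above 0. Among peaks with at least 20 PPARγ tags 93.2% lay above 0, against 73.7% in the list and 86.2% in the band from 100 to under 150. The median over the whole list was 0.50, so part of the PPARγ difference is shared by C/EBPα peaks in general. Both libraries had almost the same depth.

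PPARγ was at least 2-fold higher at 210 peaks (61.4%) and at least 2-fold lower at 2 (0.585%), against 30.8% and 7.09% in the list. Centred on the median of all peaks, the counts were 129 and 8. Among peaks with at least 20 PPARγ tags the counts were 198 and 2 of 325 (60.9% higher), against 34% and 2.93% in the list. The score band just below, from 100 to under 150, had 45.1% of such peaks at least 2-fold higher. The 2 lower peaks lay on chromosome 2 from 77745761 to 77745991, with 50.12 and 21.62 units, and on chromosome 10 from 116738944 to 116739174, with 59.8 and 29.1.

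**Figure D1:**
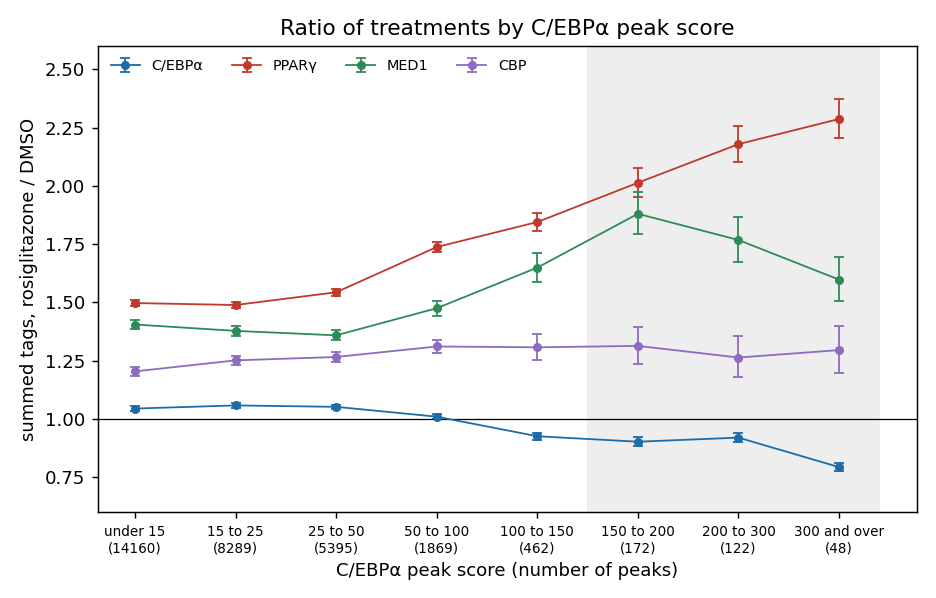
Ratio of summed tags in rosiglitazone to DMSO (y axis) in 8 bands of C/EBPα peak score (x axis, number of peaks in brackets) for 4 factors. Bars are exact 95% counting intervals and the grey area holds the peaks scoring 150 or more. PPARγ went from 1.50 in the lowest band to 2.29 in the highest, and C/EBPα from 1.05 to 0.794.

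The PPARγ ratio was graded with C/EBPα score and began to part from the rest of the list well below 150. It was 1.50, 1.49 and 1.54 in the 3 bands under 50, then 1.74 from 50 to under 100 and 1.85 from 100 to under 150. Above the threshold it was 2.01, 2.18 and 2.29 (2.20 to 2.37), as the plot of ratios by score shows. CBP had no such grade, at 1.20 in the lowest band and between 1.25 and 1.31 in all others. MED1 was 1.36 to 1.41 under 50, 1.88 from 150 to under 200 and 1.60 (1.51 to 1.69) at 300 and over.

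High C/EBPα peaks also hold more PPARγ tags, so peaks were compared at equal PPARγ tags of both treatments together. At 20 to under 50 PPARγ tags the ratio was 2.56 (2.36 to 2.78) at 89 high-scoring peaks and 1.49 at the 7160 others. It was 2.18 (2.07 to 2.29) against 1.50 at 50 to under 100 tags, and 2.41 (2.30 to 2.52) against 1.72 at 100 to under 200 tags. At 200 tags or more the 2 sets came close, at 2.01 (1.96 to 2.06) over 60 peaks and 1.90 over 289. The difference between high-scoring peaks and the rest was thus largest where PPARγ itself was low. With only peaks that carried a PPARγ peak on both sides, the 4 values were 2.57, 2.24, 2.48 and 2.11 against 1.47, 1.49, 1.71 and 1.91. The intervals of the sets do not overlap in any of these comparisons, which is a statement on tag counts and not on cultures.

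**Figure D2:**
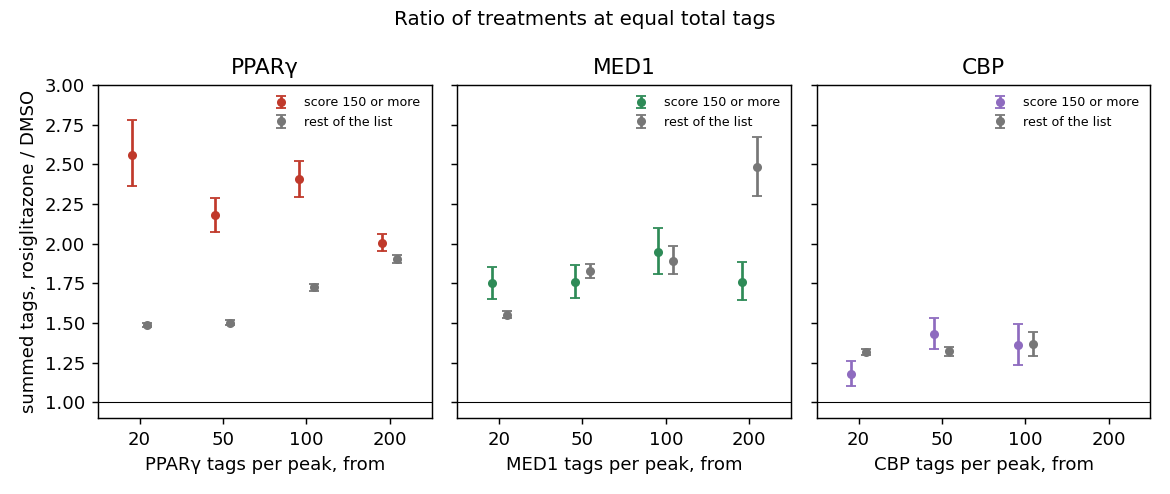
Ratio of summed tags in rosiglitazone to DMSO (y axis) at peaks scoring 150 or more (coloured) and at the rest of the C/EBPα list (grey), by the tags of the factor in both treatments together (x axis, the lowest tag number of each class), with exact 95% counting intervals. PPARγ was 2.56 against 1.49 at 20 to under 50 tags, where MED1 and CBP of the 2 sets lay closer together. At 200 tags or more MED1 was 1.76 against 2.48, and no CBP value is drawn.

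MED1, which had only a median of 17 tags per high-scoring peak in DMSO and 13 in rosiglitazone, was also higher with the ligand. Its median level was 59.41 units in DMSO and 99.48 in rosiglitazone (quartiles 45.9 and 191). The summed ratio was 1.76 (1.71 to 1.82) against 1.41 over the other peaks, and 265 of 342 peaks (77.5%) lay above 0 on the log2 scale, with a median of 0.70. Among peaks with at least 20 MED1 tags 86.6% lay above 0, against 77.2% in the list and 79.4% in the band from 100 to under 150. MED1 was at least 2-fold higher at 129 peaks (37.7%) and lower at 19 (5.56%), against 24.4% and 27% in the list, whose peaks hold few MED1 tags. Among the 247 peaks with at least 20 MED1 tags, 102 were higher (41.3%) and 4 lower, against 37.8% and 9.7% in the list, a share of higher peaks near the background. At equal MED1 tags, unlike for PPARγ, the sets parted in opposite directions in the lowest and highest classes. The MED1 ratio was 1.75 (1.65 to 1.86) against 1.55 (1.53 to 1.57) at 20 to under 50 tags. It was 1.76 against 1.83 at 50 to under 100 and 1.95 against 1.89 at 100 to under 200, with overlapping intervals. At 200 or more it was 1.76 (1.64 to 1.88) against 2.48 (2.30 to 2.67), over 11 and 10 peaks.

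CBP had the lowest ratio of the 3 factors that played no part in the choice. Its median was 35.36 units in DMSO and 42.45 in rosiglitazone (quartiles 18.2 and 78.8), and 20 peaks were listed at 0 in the shallower rosiglitazone library. The summed ratio was 1.29 (1.24 to 1.34), close to the 1.25 of the whole list. CBP was at least 2-fold higher at 65 peaks (19.0%) and lower at 50 (14.6%), against 20.8% and 28.4% in the list. With at least 20 CBP tags, 29 of 194 (14.9%) were higher and 16 (8.25%) lower, against 19.1% and 6.62%. High-scoring C/EBPα peaks thus had no larger share of peaks with higher CBP than the list. At equal CBP tags the ratio was 1.18 (1.10 to 1.26) against 1.32 (1.30 to 1.33) at 20 to under 50 tags, lower at the high-scoring peaks. In the next classes it was 1.43 against 1.32 and 1.36 against 1.37, with overlapping intervals.

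**Figure D3:**
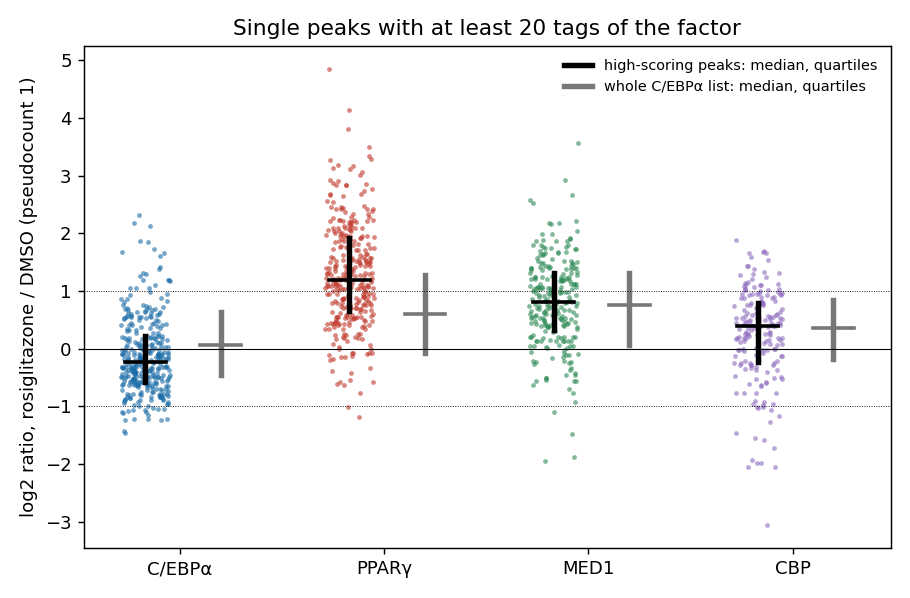
Log2 ratio of rosiglitazone to DMSO (y axis, pseudocount 1) of each high-scoring C/EBPα peak with at least 20 tags of the factor (points), with medians and quartiles of these peaks (black) and of the whole list (grey), for 4 factors (x axis). The C/EBPα points centre at -0.23, and the PPARγ points lie mostly above 0.

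C/EBPα itself was lower with rosiglitazone over the group. Its summed ratio was 0.869 (0.859 to 0.880) against 1.03 over the other peaks, and it was 0.903, 0.920 and 0.794 (0.778 to 0.810) in the 3 bands of score from 150 up. The median log2 value was -0.23, with quartiles of -0.57 and 0.22, and 121 of 342 peaks (35.4%) lay above 0. Among peaks of the list with at least 20 C/EBPα tags 53.8% did, and in the band from 100 to under 150 42.4%. At least 2-fold differences were few, 22 peaks higher (6.43%) and 17 lower (4.97%), against 15.9% and 9.25% in the list and 13.8% and 7.38% of its peaks with at least 20 tags. The band from 100 to under 150 had nearly the same shares, 7.14% and 5.41%, and a ratio of 0.926. Centred on the median of all peaks, the counts were 19 higher and 23 lower, which turns their order. The score pools both treatments, so the choice of peaks bears on this ratio. Chosen by the DMSO values alone, 428 peaks gave 0.757, and chosen by the rosiglitazone values alone, 322 peaks gave 0.963. With both treatments weighted equally, 348 peaks, 326 of them among the 342, gave 0.839. Each choice was made on the C/EBPα values that form the ratio, so these values show how far the choice moves it and support no direction.

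**Figure D4:**
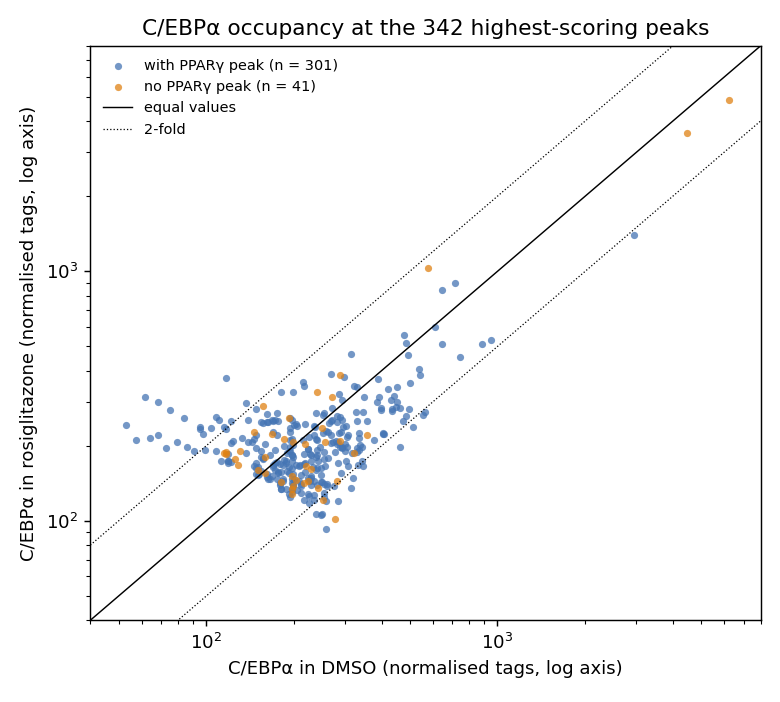
C/EBPα in DMSO (x axis) and in rosiglitazone (y axis) at the 342 peaks, in normalised tags on log axes, coloured by overlap with a PPARγ peak (301 with, 41 without). The solid line marks equal values and the dotted lines 2-fold, beyond which lie 22 peaks that are higher and 17 that are lower.

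By chromosome, the C/EBPα ratio over high-scoring peaks was below 1 on 18 of 20 chromosomes, from 0.669 to 1.04. The PPARγ ratio was above 1 on all 20, from 1.26 to 3.94, as were MED1 (1.36 to 2.52) and CBP (1.06 to 1.68). The directions of PPARγ, MED1 and CBP were thus spread over the chromosomes. The C/EBPα ratios rest on the values that chose the peaks and support no direction. The combination met most often was PPARγ higher, C/EBPα lower and MED1 higher, at 175 peaks, followed by all 3 higher at 76. In 35 peaks PPARγ was higher with C/EBPα and MED1 lower, and in 30 PPARγ and C/EBPα were higher with MED1 lower. Taken singly, PPARγ was higher at 93.6% of the 342, MED1 at 77.5% and C/EBPα at 35.4%. The combinations were not counted over the whole list, and C/EBPα is the measure that chose the peaks. They are thus a description only.

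Across the high-scoring peaks, the difference in C/EBPα went weakly along with that in PPARγ, and weakly against that in MED1. Both C/EBPα columns formed the score that chose the peaks, so the correlations with C/EBPα are a description only. Across the 325 peaks with at least 20 PPARγ tags, the log2 values of C/EBPα and PPARγ had a Spearman correlation of 0.32 and a Pearson correlation of 0.34. In the whole list (7712 peaks) these were -0.06 and 0.02, and in the band from 100 to under 150 (399 peaks) 0.14 and 0.22. For C/EBPα and MED1 they were -0.29 and -0.30 over 247 peaks, much as in the list, with -0.28 and -0.24. PPARγ and MED1 were nearly unrelated at high-scoring peaks, at 0.04 and 0.07 over 244 peaks, and in the band from 100 to under 150, at 0.02 and 0.07 over 213 peaks, while the list gave 0.25 and 0.31. These are 3 of 6 pairs of factors computed, and the peaks share libraries, so no p is given.

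The 342 peaks were also divided into 4 groups by PPARγ ratio. C/EBPα, the measure that chose the peaks, is given for these groups as a description only. From the lowest to the highest group the PPARγ ratio was 1.22, 1.96, 2.89 and 5.54 by construction. C/EBPα was 0.848, 0.689, 0.853 and 1.19 (1.16 to 1.22), so only the group with the highest PPARγ ratio had more C/EBPα with rosiglitazone. The median log2 of C/EBPα was -0.33, -0.48, -0.22 and 0.27. MED1 went 1.62, 1.74, 2.06 and 1.60 and CBP 1.22, 1.32, 1.43 and 1.19, without such an order.

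**Figure D5:**
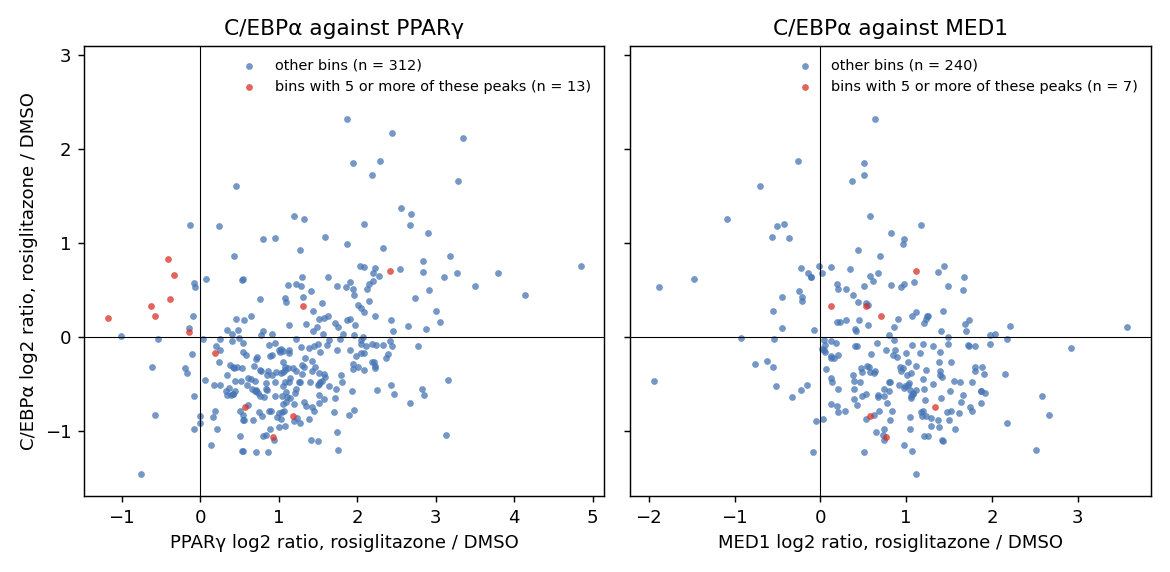
C/EBPα log2 ratio of rosiglitazone to DMSO (y axis) against that of PPARγ (left x axis) and of MED1 (right x axis) at high-scoring peaks with at least 20 tags of the factor on the x axis. Red points lie in the pair of 1 Mb bins with 5 or more such peaks. The Spearman correlation was 0.32 over 325 peaks on the left and -0.29 over 247 on the right.

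The 22 peaks with at least 2-fold more C/EBPα in rosiglitazone all carried a PPARγ peak, against 88.0% of the 342. C/EBPα at the 22 was at most 136.9 units in DMSO and at least 189.78 in rosiglitazone. The rosiglitazone values thus brought them past the score threshold. Since C/EBPα chose both the 342 and the 22, the contrasts between them are a description only. The summed PPARγ ratio of the 22 was 3.52 (3.17 to 3.91), against 2.14 over the 342, and PPARγ was higher at 21 of them, near the 93.6% of all. MED1 was higher at 9 of the 22, against 77.5% of all, with a ratio of 1.26 (1.09 to 1.44) against 1.76. In the peak on chromosome 5 from 111032079 to 111032309, C/EBPα was 61.83 units in DMSO and 313.32 in rosiglitazone, 5.07-fold (3.42 to 7.78), and PPARγ was 22.86 and 86.46. Another, on chromosome 1 from 162009583 to 162009813, had 68.45 and 300.58 units of C/EBPα and 3.52 and 44.89 of PPARγ. There PPARγ was higher 12.8-fold (4.71 to 48.5), while MED1 was 48.93 and 38.26, resting on 14 and 5 tags. The MED1 ratio of 0.782 had an interval (0.220 to 2.30) that included 1. The peak on chromosome 9 from 109751949 to 109752179 had C/EBPα of 75.07 and 277.66 and PPARγ of 7.03 and 38.24. Its MED1 was 101.35 and 84.18, a ratio of 0.831 with an interval (0.374 to 1.71) that also included 1.

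Of the 17 peaks with at least 2-fold less C/EBPα, 15 carried a PPARγ peak. Their C/EBPα ratio was 0.459 by selection, while PPARγ was 1.80 and higher at 16 of 17, MED1 1.94 and higher at 15, and CBP 1.16. These counts are near the shares of all 342 peaks, 93.6% for PPARγ and 77.5% for MED1, so nothing is read from them for the 17. The lowest C/EBPα ratio was on chromosome 3 from 96044323 to 96044553, with 258.34 and 92.98 units, a ratio of 0.360 (0.265 to 0.486). This was also the exception for PPARγ, at 17.59 and 9.98 units. On chromosome 1 from 167391092 to 167391322 C/EBPα was 313.55 and 135.01 units, PPARγ 14.07 and 49.88, and MED1 41.94 and 244.87, a MED1 ratio of 5.84 (2.93 to 12.4).

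Among peaks with at least 20 PPARγ tags, those with the highest PPARγ ratios had few PPARγ tags in DMSO, which choosing by the ratio favours. On chromosome 1 from 189942119 to 189942349 PPARγ was 0.88 and 53.21 units, or 1 and 64 tags, a ratio of 60.5 (10.5 to 2.43e+03). C/EBPα was 121.44 units there in DMSO and 205.06 in rosiglitazone, and MED1 69.89 and 191.31. The peak on chromosome 8 from 12984154 to 12984384 had 0 and 20 PPARγ tags, at least 6.30-fold higher when set against 3 tags in the DMSO library, with an exact 95% interval that starts lower, at 4.67. On chromosome 2 from 120285995 to 120286225 PPARγ was 1.76 and 37.41 units, 2 and 45 tags (5.56 to 181), with C/EBPα of 216.39 and 346.44 and nearly equal MED1 of 143.28 and 145.39. MED1 was thus higher with the ligand at the first of these sites and nearly equal at the last.

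Among peaks with at least 20 MED1 tags, MED1 differed most on chromosome 4 from 105602362 to 105602592, with 20.97 units in DMSO and 260.18 in rosiglitazone, 12.4-fold (5.15 to 36.2), at nearly equal C/EBPα of 322.38 and 346.44. A better counted site lay on chromosome 6 from 84175672 to 84175902. It had MED1 of 87.37 and 665.75 (7.62-fold, 4.84 to 12.4), PPARγ of 144.21 and 379.94 and CBP of 92.83 and 181.92, with C/EBPα level at 187.69 and 173.22. In the other direction, MED1 was 237.64 and 61.22 on chromosome 5 from 125754112 to 125754342, a ratio of 0.258 (0.107 to 0.537), where PPARγ was 65.95 and 107.25. Among peaks with at least 20 CBP tags the highest CBP ratio was 3.77 (1.89 to 7.68), on chromosome 11 from 120692064 to 120692294, with 35.36 and 133.41 units, and the lowest 0.106 (0.00257 to 0.642), on chromosome 17 from 17761437 to 17761667, resting on 26 tags against 1.

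Among the 12 highest scores, 3 lay on chromosome 6, and those of rank 6 and 8 stood next to each other. The peak from 115461491 to 115461721, rank 6 by score, had C/EBPα of 646.97 and 843.16, PPARγ of 106.4 and 474.71 and MED1 of 922.6 and 795.84. PPARγ was higher 4.46-fold (3.66 to 5.47) there, its PPARγ partner ranked 19th in its own list, and the MED1 ratio of 0.863 (0.681 to 1.09) had an interval that included 1. Its neighbour from 115469402 to 115469632, rank 8 by score, had less C/EBPα with rosiglitazone, 887.65 and 510.74, and PPARγ of 147.73 and 311.76. Both were also among the 5 highest for MED1 and for CBP in DMSO. The C/EBPα ratios of these neighbours, under 10 kb apart, were 1.30 (1.13 to 1.50) and 0.575 (0.500 to 0.662). Such ratios rest on the values that chose the peaks, and the pair was picked after its values were seen. They are thus a description only.

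The peak of rank 9, on chromosome 2 from 102041795 to 102042025, had all 3 cofactors higher at level C/EBPα. C/EBPα was 611.64 and 597.35, PPARγ 76.5 and 319.25 (4.17-fold, 3.30 to 5.33), MED1 325.01 and 589.23 (1.81-fold, 1.32 to 2.48) and CBP 167.97 and 315.33 (1.88-fold, 1.29 to 2.71). That of rank 12, on chromosome 17 from 26708419 to 26708649, had PPARγ of 80.9 and 384.09, the highest PPARγ ratio of the 12 at 4.75 (3.79 to 6.01), with C/EBPα of 479.15 and 557.86. On chromosome 6 from 89287632 to 89287862, rank 10 by score, CBP was lower, 128.19 and 42.45, a ratio of 0.331 (0.128 to 0.727), while PPARγ was 51.88 and 149.65.

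At the top of the list, the chromosome 17 peak (39984676 to 39984906, score 5345.6) held C/EBPα of 6244.43 and 4857.74 and the most MED1 in DMSO of all 342, 1020.46, with 1591.68 in rosiglitazone. It and the second peak, scoring 3036.3 on chromosome 8 (24205994 to 24206224), held the most PPARγ in DMSO, 325.36 and 1110.61 units in that order. Neither overlapped a listed PPARγ peak, but the nearest was centred only 290 bp away at the first, and 57400 bp away at the second. At the second, MED1 (55.92 and 107.13) was near the median of the group and CBP (28.73 and 6.06) below it. What part input signal has at these sites was not tested. Without the 10 highest peaks the C/EBPα ratio was 0.890 (0.878 to 0.902).

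The 41 peaks without a PPARγ peak were not free of PPARγ. Of them, 37 held pooled PPARγ at or over the lowest score in the PPARγ list, 5.6, which was not counted over the whole C/EBPα list. A PPARγ peak lay within 10 kb of 27 (65.9%), near the 68.1% of the whole C/EBPα list, so nothing is read from that count. Medians of the 41 in DMSO were 7.91 units of PPARγ against 18.5 at the 301 with a PPARγ peak. They were 38.4 against 66.4 for MED1 and 24.3 against 39.8 for CBP, at C/EBPα of 203 against 223. The PPARγ ratio was 1.67 (1.59 to 1.76) against 2.23 (2.18 to 2.28) at peaks with a PPARγ peak. MED1 was 1.47 (1.34 to 1.62) against 1.80, CBP 0.997 (0.843 to 1.18) against 1.31, and C/EBPα 0.874 against 0.868. That PPARγ value rested on 9 sites, 7 in crowded 1 Mb bins on chromosomes 2 and 10 and the peaks of rank 1 and 2. In the 32 others the PPARγ ratio was 2.89, above that of peaks with a PPARγ peak, and the MED1 and CBP ratios were 1.38 and 1.09. One of these 32, on chromosome 6 from 51419868 to 51420098, was among the 5 highest for MED1 in DMSO, 803.78 and 1163.15 units. PPARγ was 2.64 and 19.12 there, and the nearest listed PPARγ peak was centred 288 bp away.

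High-scoring peaks were spread over all 20 chromosomes. Chromosome 2 held 51, chromosome 6 held 39, chromosome 5 held 30, chromosome 17 held 29 and chromosome 8 held 28. As a share of the C/EBPα peaks of the chromosome they ran from 0.416% on chromosome 13 to 1.91% on chromosome 17. Most stood alone, with 211 bins of 1 Mb holding 1, 38 holding 2, 10 holding 3 and 3 holding 4. Another of the 342 lay within 10 kb of 29 (8.48%). Another C/EBPα peak of any score lay within 10 kb of 55.3%, near the 50.2% of the list, and a PPARγ peak within 10 kb of 95.9% against 68.1%.

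A pair of bins was crowded, and they differed from each other. On chromosome 2 from 77745761 to 77831219 lay 7 high-scoring peaks, 3 of them with a PPARγ peak. Their PPARγ ratio was 0.965 (0.870 to 1.07), with an interval that included 1, against 2.14 over the 342. Their C/EBPα ratio was 1.29 (1.19 to 1.40) against 0.869, but it rests on the values that chose the peaks. In DMSO their median PPARγ was 75.62 units, above the 16.71 of the group, and their median MED1 20.97, below its 59.41. The peak of rank 4 by score lies there, from 77764090 to 77764320, with C/EBPα of 578.51 and 1031.66 and PPARγ of 113.44 and 84.8. The other bin, on chromosome 10 from 117113436 to 117540658, held 6 peaks, among them those of rank 3, 5 and 7 by score. There the C/EBPα ratio was 0.681, the PPARγ ratio 1.96 and the MED1 ratio 1.57, on the same sides of 1 as in the group. The CBP ratio of 1.06 had an interval (0.882 to 1.26) that included 1. The one of rank 3, from 117183450 to 117183680, had C/EBPα of 2934.53 and 1397.21, a ratio of 0.476 (0.439 to 0.516), and the most CBP in DMSO of all 342, 340.37. Without both bins the PPARγ ratio of the group was 2.21 (2.17 to 2.26).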

How the data were processed

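Chromatin immunoprecipitation sequencing of 3T3-L1 adipocytes was analysed from the authors' C/EBPα and PPARγ peak lists. The submitters' processing notes name the build mm9 and the tools HOMER, Bowtie, FastQC and edgeR, with no version (not given in the sources used here). The deposited signal columns hold normalised tags per peak for 4 factors and 2 treatments. A deposited peak score ranks the peaks, and the deposited focus ratio, a fraction, had a median of 0.946 at the high-scoring peaks and 0.84 in the list. For MED1 the header of the treated column reads BRL, which is a development code of rosiglitazone.

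All deposited signal values above 0 were whole multiples of 1 step per column (100% within 0.02 steps), so tags were recovered. The depths given assume scaling to 10 M tags, which no header states. Ratios do not need that assumption. No count model could be fitted with 1 column per treatment. Overlap meant at least 1 bp in common. Ratios are of summed values. Counts of peaks past 2-fold used log2 of the value plus 1, which draws ratios of low values towards 1. Where 1 treatment was at 0, however, 1 tag in the other could pass 2-fold. In rosiglitazone 1 tag was 7.65 units for MED1 and 6.06 for CBP. Counts with at least 20 tags leave such peaks out. The script was tested on simulated tags. Tools were Python 3.11.15, numpy 2.4.6, pandas 2.3.3, scipy 1.17.1 and matplotlib 3.10.9.

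The peaks and rules were chosen with earlier results of these data known. Peaks named are the 12 highest scores, the 3 on either side of the threshold, the 5 highest and 5 lowest ratios per factor among peaks with at least 20 tags of it, the 5 with the most PPARγ, MED1 or CBP in DMSO, the 5 with the least PPARγ per C/EBPα, and the 1 Mb bins with the most peaks. Not every one is printed. Peaks of these sets printed for a pattern were picked after their values were seen. Alternatives were another threshold, overlap, pseudocount and tag minimum, centring on the median of all peaks, and leaving out the top 10 or crowded bins. Genes near the peaks and sequences in them were not analysed here, since the reference at hand is of another build than mm9.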

Additional observations from a re-analysis of the deposited data

How the results depend on the processing

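Over the alternatives tried, 47 values moved by less than their interval or, for counts, stayed within 1.5 times, 30 moved further and 1 reversed, the CBP ratio of 0.997 at peaks without a PPARγ peak. Overlap with PPARγ peaks was 83.6% when at least 50% of the C/EBPα peak had to be covered, 91.7% at scores of 300 or more and 83.3% at 100 or more. The C/EBPα ratio was 0.890 without the 10 highest peaks, 0.794 at 300 or more, 0.891 at 100 or more and 0.825 after division by the median ratio of all peaks. Added after seeing the data, it was 0.839 with equal weight of both treatments in the choice, 0.757 chosen by DMSO alone and 0.963 by rosiglitazone alone. The PPARγ ratio was 2.21 without the crowded bins, 2.29 at 300 or more, 1.998 at 100 or more and 1.51 after that division. It was 2.23 with and 1.67 without a PPARγ peak, and 2.07, 1.97 and 2.21 under the 3 other choices. The MED1 ratio was 1.82 without the 10 highest, 1.60 at 300 or more, 1.47 without a PPARγ peak and 1.70 chosen by rosiglitazone alone. Peaks at least 2-fold higher in PPARγ numbered 129 after centring on the median of all peaks. Peaks lower in PPARγ numbered 1 with a pseudocount of 5, 8 after centring and 1 without the crowded bins. With at least 20 tags, 4 of 247 were lower in MED1, or 1.62% against 5.56% of all 342. In CBP 29 of 194 were higher and 16 lower, or 14.9% and 8.25% against 19.0% and 14.6%. The shares were thus lower as well as the counts. The cause of these shifts was not tested.

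No paired analysis was possible because each factor has 1 column per treatment and the PPARγ columns carry no replicate number. Leaving out a replicate was not possible for the same reason. MED1 and CBP are limited by depth, with median tags of 13 and 7 per peak in rosiglitazone, so single peaks are poorly measured for both. Enrichment of each library is not known and enters the level of every ratio.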
